A study of Mus musculus with 5 samples.

Results

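In mouse kidney CD4 T cell libraries, 8 genes of extracellular ATP and adenosine handling were followed: P2rx7, P2rx4, Panx1, Entpd1, Nt5e, Art2b, Adora2a and Ada. They were taken by symbol from the 31053 genes counted. P2rx7 was chosen by its higher level in knockout-labelled Foxp3-expressing cells, and the others were listed with it for their roles. The difference between the groups in Foxp3-expressing cells is therefore given below as a description with no test.

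Dying and stressed cells release ATP, partly through pannexin channels, and ATP opens P2X receptor channels on immune cells. The ectoenzyme CD39 strips ATP and ADP to AMP, CD73 turns AMP into adenosine, and adenosine acts on receptors that raise cyclic AMP and restrain T cells. Mouse T cells also carry an ADP-ribosyltransferase that uses extracellular NAD to modify P2X7 and open it, and regulatory T cells (Tregs) are known for carrying CD39 and CD73.

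The study asked about Tregs with ST2, the IL-33 receptor encoded by Il1rl1, in kidneys of 10-week-old mice after unilateral ischemia-reperfusion injury. Cells from collagenase-digested kidneys were sorted by surface CD45, TCRβ, CD4, CD25 and CD127 and read by droplet 3′ RNA sequencing with unique molecular identifiers (UMIs, counted transcripts). The 2 control libraries came from Il1rl1fl/fl mice, in which loxP sites flank part of Il1rl1. The 3 knockout libraries came from Il1rl1fl/fl Foxp3YFP-Cre mice, where the Foxp3 locus drives Cre, so that Il1rl1 is to be lost in Foxp3-expressing cells. All 5 libraries shared the floxed gene, the injury and the age. The Foxp3YFP-Cre allele was present in the knockout-labelled libraries alone, so effects of that allele and of Il1rl1 loss cannot be told apart. The labels do not say that the libraries came from separate animals, and p-values here measure the spread between these libraries, which may be technical.

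Depth differed within the control group. Retained cells numbered 4241 to 10320 per library, with median UMIs per cell of 13534 and 3786 in the controls and 4115.5 to 7546 in the knockout-labelled libraries. Any pair of libraries shared 2 to 36 cell barcodes, at most 0.38% of the smaller library. Cells were placed in 3 gates by raw UMIs: a Foxp3 gate (at least 1 Foxp3 UMI, 315 to 863 cells per library), a Foxp3-negative Cd4 gate (0 Foxp3 and at least 1 Cd4 UMI, 3142 to 7417 cells) and a macrophage gate (C1qa, C1qb and C1qc summing to at least 5 UMIs, 350 to 844 cells). Levels are UMIs of the gene per 1000000 UMIs of the gate's cells in that library (CPM). The Foxp3 gate carried Treg markers (Foxp3, Ikzf2, Il2ra and Ctla4 together 1844 to 2731 CPM, against 213 to 315 CPM in the Foxp3-negative Cd4 gate, where Foxp3 is 0 by the gate). The macrophage gate did not hold macrophage RNA alone: its 5 T cell markers summed to 2104 to 2394 CPM, against 2533 to 2765 CPM in the Foxp3-negative Cd4 gate. Its 8 macrophage markers summed to 2748 to 5896 CPM. All 8 were also above 0 in both T cell gates, at 614 to 2097 CPM in the Foxp3 gate and 499 to 1340 CPM in the Foxp3-negative Cd4 gate. Pairs of cells captured together and free RNA were not told apart in any gate, and a value for the macrophage gate is a value for these cells with the T cell RNA they carried.

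Il1rl1 itself stood at 74.2 and 54.8 CPM in the Foxp3 gate of the controls and at 128, 53.9 and 51.6 CPM in that of the knockout-labelled libraries. In the Foxp3-negative Cd4 gate it stood at 8.87 and 9.04 CPM against 57.6, 35.3 and 24.2 CPM. Within the Foxp3 gate, where the deletion is meant to act, knockout-labelled libraries 2 and 3 were thus below both controls and library 1 above both. In the Foxp3-negative Cd4 gate all 3 were above both controls. The labels do not name the deleted exons, and tags from the 3′ end outside the deleted part cannot check a deletion. The groups are named by their labels throughout.

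P2rx7 encodes the P2X7 channel, which opens at high ATP. It lies on chromosome 5 from 122643911 to 122691432 on the forward strand of mm10 (ENSMUSG00000029468, protein coding). Entpd1, which encodes CD39, lies on chromosome 19 from 40612366 to 40741602 on the forward strand (ENSMUSG00000048120, protein coding). The RefSeq table (GRCm38.p6) gave 2 starts for each. The 250 bases upstream of every start are shown. P2rx7 and Entpd1 were taken for this because DESeq2 called these 2 of the 8 genes in the Foxp3-negative Cd4 gate. DESeq2 called 58 of the 13959 genes tested there, and edgeR called neither of the 2, as described below. Capitals mark AP-1 sites (TGANTCA) and GC boxes (GGGCGG or its reverse complement).

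P2rx7 chr5:122643677-122643926, forward: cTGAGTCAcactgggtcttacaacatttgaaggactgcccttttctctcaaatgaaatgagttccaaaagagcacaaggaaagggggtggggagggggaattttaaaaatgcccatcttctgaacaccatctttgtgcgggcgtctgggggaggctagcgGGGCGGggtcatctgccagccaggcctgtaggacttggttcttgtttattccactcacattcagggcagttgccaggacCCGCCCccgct
P2rx7 chr5:122650133-122650382, forward: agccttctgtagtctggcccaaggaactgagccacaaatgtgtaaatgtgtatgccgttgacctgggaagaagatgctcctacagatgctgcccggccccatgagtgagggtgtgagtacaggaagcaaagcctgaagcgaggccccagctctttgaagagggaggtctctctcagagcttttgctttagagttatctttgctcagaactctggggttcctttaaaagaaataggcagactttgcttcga
Entpd1 chr19:40612116-40612365, forward: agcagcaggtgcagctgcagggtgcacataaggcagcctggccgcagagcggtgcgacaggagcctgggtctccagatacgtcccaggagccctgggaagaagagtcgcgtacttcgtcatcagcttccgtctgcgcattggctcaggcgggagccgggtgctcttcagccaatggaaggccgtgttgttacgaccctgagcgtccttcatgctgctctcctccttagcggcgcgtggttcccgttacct
Entpd1 chr19:40659520-40659769, forward: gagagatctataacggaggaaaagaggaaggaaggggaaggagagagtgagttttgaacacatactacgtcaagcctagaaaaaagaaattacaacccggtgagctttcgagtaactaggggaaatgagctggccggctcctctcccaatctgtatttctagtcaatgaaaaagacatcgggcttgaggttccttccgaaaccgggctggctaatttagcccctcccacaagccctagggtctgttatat

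The window before the first P2rx7 start held 1 AP-1 site and 2 GC boxes, which did not overlap. The second P2rx7 window and both Entpd1 windows held neither. Forkhead (TGTTTAC), RUNX (TGTGGTT) and ETS (CCGGAAGT) letters, searched like the others on both strands, were absent from all 4 windows. Among 32851 RefSeq windows of the same length, 6.75% held the AP-1 letters, 32.7% a GC box, 3.17% the forkhead, 4.40% the RUNX and 2.88% the ETS letters. A match is a string of letters and not a measured site, and 3′ counts do not tell transcripts of the 2 starts apart.

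In the Foxp3 gate, P2rx7 stood at 108 and 129.7 CPM in the control libraries and at 218, 219 and 221 CPM in the knockout-labelled libraries. These came from 634 to 1953 UMIs per library. Every knockout-labelled library was above both controls, with means of 119 ± 15.5 (SD, n = 2) and 219 ± 1.84 CPM (SD, n = 3). Of the 11519 genes tested in this gate, 14.9% had all 3 knockout-labelled libraries above both controls. The fitted log2 difference was 0.85 (SE 0.11), a 1.81-fold higher level, in the contrast by which the gene was chosen. Markers of other cells also separated the groups in this gate. The 8 macrophage markers summed to 614.5 and 1253 CPM in the controls against 1342, 1513 and 2097 CPM, and the 4 NK markers to 139 and 135 against 151, 152.5 and 165 CPM. The 5 B cell markers were lower in the knockout-labelled libraries, at 1254 and 429 against 407, 228 and 248 CPM, and so were the 2 CD8 markers, at 71.0 and 34.4 against 17.9, 32.4 and 33.8 CPM. Without macrophage-gate cells the P2rx7 difference was 0.86 (SE 0.11), and the part of the other markers was not tested. With edgeR's quasi-likelihood test and Benjamini-Hochberg adjustment, 0 of the 11519 genes tested in this gate passed (0% called), with 752 at an unadjusted p under 0.05, and DESeq2 called 51.

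Outside the Foxp3 gate, P2rx7 again separated the libraries by group. In the Foxp3-negative Cd4 gate it stood at 147 and 170.0 CPM in the controls and at 286, 248.5 and 244 CPM in the knockout-labelled libraries, from 5517 to 18229 UMIs per library. The groups did not overlap, and 12.4% of all genes tested were likewise higher without overlap. The log2 difference was 0.67 (SE 0.12), or 1.59-fold, and 0.70 (SE 0.12) without macrophage-gate cells. This did not pass in edgeR (unadjusted p = 0.00107, adjusted p = 0.820 over 13959 genes, range over its alternatives 6.22e-04 to 1), where 0% of all genes were called and 685 had an unadjusted p under 0.05. DESeq2, which called 58 genes there, gave P2rx7 an adjusted p of 6.22e-04, and edgeR without the filter on low counts gave 0.00656. Leaving out single libraries moved the log2 difference between 0.56 (without control library 1) and 0.79 (without control library 2). Treg markers other than Foxp3 were higher here in the knockout-labelled libraries (303, 315 and 308 against 246 and 213 CPM) and dendritic markers lower (293, 266 and 212 against 314 and 297 CPM), and their part in the value was not tested.

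The macrophage gate showed the same order of libraries, at 133 and 164 CPM in the controls and 254, 239.9 and 226 CPM in the knockout-labelled libraries, where 12.9% of genes were higher without overlap. The log2 difference of 0.65 (SE 0.12) did not pass in edgeR (adjusted p = 0.720, 0% of 12005 genes called, 433 at an unadjusted p under 0.05) and passed in DESeq2 (adjusted p = 0.00434, 21 genes called) and in edgeR without the filter on low counts (0.00518). T cell markers in this gate were near their level in the T cell gates, as given above. Most of its cells were also counted in a T cell gate. Of its 586, 751, 350, 844 and 493 cells, 467, 533, 261, 637 and 367 also met the Foxp3-negative Cd4 gate. A further 60, 74, 44, 145 and 70 met the Foxp3 gate (control libraries 1 and 2, then knockout-labelled libraries 1, 2 and 3). The macrophage gate is thus not a separate set of cells. Monocyte markers were higher in the knockout-labelled libraries (240.0, 147 and 135 against 127 and 96.8 CPM) and B cell markers lower (226.5, 194 and 205 against 269 and 325 CPM). The part of these markers in the value was not tested. Whether the P2rx7 difference varied between gates was not tested, since the Foxp3 gate chose the gene. In these summed counts, more cells with P2rx7 and more P2rx7 RNA per cell cannot be told apart.

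The share of cells with a P2rx7 UMI followed the same order of groups. Cells that also met the macrophage gate were left out here. After every cell was thinned to 2000 UMIs, 16.6% and 21.7% of Foxp3-gate cells in the controls had one. In the knockout-labelled libraries 32.3%, 29.7% and 33.1% did, a description of the contrast that chose the gene. Without thinning the shares were 58.4% and 39.4% against 63.1%, 56.5% and 56.5%, at median depths of 15899, 5035, 10867, 5724 and 5118 UMIs. Thinned shares in the Foxp3-negative Cd4 gate were 21.0% and 23.4% against 37.4%, 34.5% and 32.6%. The groups did not overlap in either gate after thinning. How many of all genes separated likewise in such shares was not computed. Thinning left out 6 to 78 cells per library in the Foxp3 gate and 69 to 615 in the other.

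A B gate, set by Cd79a, Cd79b and Ms4a1, gave thinned P2rx7 shares of 10.6% and 13.1% for the controls. The knockout-labelled libraries gave 29.7%, 20.6% and 25.8%. The gate put no limit on Cd4 or Foxp3 UMIs, so its cells could also be counted in the T cell gates. That overlap was not computed. The B-gate cells were few (31 to 160 per library), at median depths of 6136 to 21520 UMIs. Their shares were below those of the Foxp3-negative Cd4 gate in 5 of 5 libraries, although the gates were not shown to be separate sets of cells. Proximal tubule cells (4 to 18 per library after thinning) were too few to set a background: 2 of 16 and 1 of 9 in the controls and 0 of 4, 0 of 18 and 0 of 5 in the others had a P2rx7 UMI. The 0 of 18 allows a share of up to 16.7% (3 counts of 18 cells). The part of free P2rx7 RNA in the B gate was not tested.

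**Figure D1:**
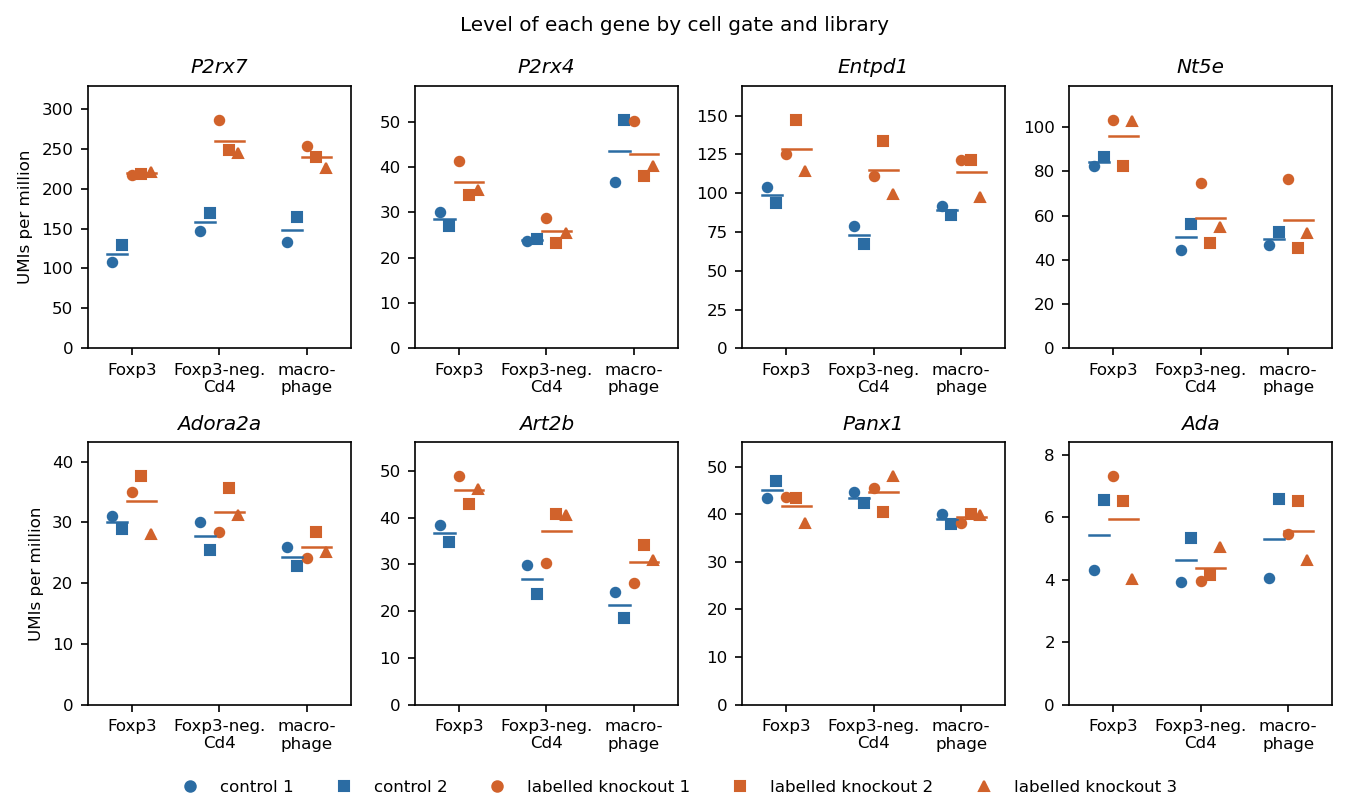
Level of each of the 8 genes in CPM (vertical axes, from 0) in the Foxp3, Foxp3-negative Cd4 and macrophage gates. Points are libraries, blue for control and orange for knockout-labelled, and short lines are group means. P2rx7, Entpd1 and Art2b show no overlap between the groups in any of the 3 gates. In single gates, 14.9%, 12.4% and 12.9% of all genes tested were higher without overlap, in the order named. The share doing so in all 3 was not computed. The gates share cells, and the Foxp3 gate chose P2rx7. Panx1 stays between 38.0 and 48.0 CPM throughout.

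P2rx4 encodes P2X4, a channel that opens at lower ATP, and lies 16111 bp beyond P2rx7 on the same strand of chromosome 5 (122707544 to 122729738, ENSMUSG00000029470). In the Foxp3-negative Cd4 gate it stood at 23.8 and 24.1 CPM in the controls and at 28.9, 23.3 and 25.4 CPM in the knockout-labelled libraries. The groups overlapped, with a log2 difference of 0.07 (SE 0.12, unadjusted p = 0.591 in edgeR). In the Foxp3 gate the values were 30.03 and 27.0 CPM against 41.3, 33.9 and 34.96 CPM, without overlap, as for 14.9% of genes tested. Without macrophage-gate cells they were 29.99 and 20.2 CPM against 35.6, 26.1 and 32.4 CPM, and the groups overlapped. In the macrophage gate P2rx4 stood at 36.6 and 50.4 CPM against 50.1, 38.0 and 40.2 CPM, with overlap. The macrophage markers that followed the groups in the Foxp3 gate are given above.

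Panx1 (chromosome 9, 15002128 to 15045478, reverse strand, ENSMUSG00000031934) encodes pannexin 1, a channel through which cells let out ATP. Its levels spanned 38.1 to 47.1 CPM in the Foxp3 gate, 40.5 to 48.0 CPM in the Foxp3-negative Cd4 gate and 38.0 to 40.1 CPM in the macrophage gate. The groups overlapped in all 3 gates, and the log2 differences were -0.14, -0.01 and -0.03 (SE 0.12, 0.10 and 0.11).

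Entpd1 followed the order of the groups seen for P2rx7. In the Foxp3-negative Cd4 gate it stood at 79.0 and 67.1 CPM in the controls and at 111, 134 and 99.6 CPM in the knockout-labelled libraries. All 3 knockout-labelled values were above both controls, as for 12.4% of all genes tested there, and the log2 difference was 0.61 (SE 0.15). It did not pass in edgeR (unadjusted p = 0.00479, adjusted p = 0.962, range over its alternatives 0.0146 to 1), and it passed in DESeq2 (adjusted p = 0.0446) and in edgeR without the filter on low counts (0.0146). The macrophage gate held 92.1 and 85.8 CPM against 121, 122 and 97.3 CPM, also without overlap (as for 12.9% of genes), with a log2 difference of 0.31 (SE 0.13, adjusted p = 1.00 in edgeR). In the Foxp3 gate the values were 104 and 93.5 CPM against 125, 147 and 114 CPM, a log2 difference of 0.35 (SE 0.13) in the contrast that chose P2rx7.

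Nt5e (chromosome 9, 88327197 to 88372092, forward strand, ENSMUSG00000032420) encodes CD73. Its Foxp3-gate levels were 82.3 and 86.8 CPM in the controls and 103, 82.4 and 103 CPM in the knockout-labelled libraries, and the groups overlapped. They overlapped too in the Foxp3-negative Cd4 gate, where the log2 difference was 0.19 (SE 0.21), and in the macrophage gate, where it was 0.18 (SE 0.22). In both of these gates knockout-labelled library 1 was the highest of the 5, at 74.8 and 76.5 CPM.

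Art2b (chromosome 7, 101576970 to 101585600, reverse strand, ENSMUSG00000030651) encodes the ADP-ribosyltransferase ARTC2.2 of T cells. Its near-identical neighbour Art2a-ps lies 16104 bp away and is not among the counted genes, and how shared reads were treated is not given in the sources used here, so the Art2b levels are uncertain. They were 29.9 and 23.6 CPM in the controls and 30.3, 40.7 and 40.6 CPM in the knockout-labelled libraries in the Foxp3-negative Cd4 gate. The groups did not overlap there, as for 12.4% of all genes tested, by a narrow margin for knockout-labelled library 1. The log2 difference of 0.43 (SE 0.17) did not pass (unadjusted p = 0.0429, adjusted p = 0.994 in edgeR). In the macrophage gate, Art2b stood at 24.2 and 18.4 CPM against 26.1, 34.2 and 31.0 CPM, a log2 difference of 0.46 (SE 0.18). Foxp3-gate levels were 38.5 and 34.8 CPM against 48.8, 42.8 and 46.1 CPM. The groups did not overlap in the macrophage or Foxp3 gate, as for 12.9% and 14.9% of genes tested there. After thinning to 2000 UMIs the Foxp3-gate difference, first fitted at 0.28, was -0.00071.

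Adora2a (chromosome 10, 75316877 to 75334784, forward strand, ENSMUSG00000020178) encodes the adenosine A2a receptor of T cells. It spanned 28.1 to 37.6 CPM in the Foxp3 gate, 25.4 to 35.6 CPM in the Foxp3-negative Cd4 gate and 22.8 to 28.5 CPM in the macrophage gate, with overlap between the groups in each. Ada (chromosome 2, 163726584 to 163750239, reverse strand, ENSMUSG00000017697) encodes adenosine deaminase, which turns adenosine into inosine. It was counted from only 14 to 78 UMIs per library in the Foxp3 gate, at 4.01 to 7.30 CPM, and its groups overlapped in all 3 gates.

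In each of the 3 gates all 8 genes passed the filter on low counts. In the Foxp3-negative Cd4 and macrophage gates, 0 of 8 passed the knockout against control test in edgeR, where 0% of all genes did. P2rx7, Entpd1 and Art2b had an unadjusted p under 0.05 in both, beside 685 of 13959 genes in the first gate and 433 of 12005 in the second. DESeq2 called P2rx7 in both and Entpd1 in the Foxp3-negative Cd4 gate, among 58 and 21 genes called. The median log2 differences over the 8 genes were 0.23, 0.17 and 0.12 in the Foxp3, Foxp3-negative Cd4 and macrophage gates, beside -0.00081, 0.0012 and 0.0065 over all genes tested. Of the 54 other purinergic, NAD and inflammasome genes of the list that were measured, 28, 37 and 32 were tested in these gates. Of these, 0 passed in edgeR, with 3, 4 and 2 at an unadjusted p under 0.05, and how DESeq2 called them was not analysed here.

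The Foxp3 gate differed from the Foxp3-negative Cd4 gate of the same libraries in 5 of the 8 genes. These comparisons kept the library as a block and left out cells that also met the macrophage gate. P2rx7 was lower in the Foxp3 gate, and Nt5e, Entpd1, Art2b and P2rx4 were higher, while 19.6% of the 12503 genes tested were called. Both T cell gates came from the same suspensions, so these differences hold within libraries.

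P2rx7 stood at 105, 124, 209, 205 and 222 CPM in the Foxp3 gate of control libraries 1 and 2 and knockout-labelled libraries 1, 2 and 3. The Foxp3-negative Cd4 gate of the same libraries stood at 148, 170.0, 291, 251 and 248.9 CPM. It was lower in the Foxp3 gate in 5 of 5 libraries, with a log2 difference of -0.43 (SE 0.05, adjusted p = 2.78e-04 in edgeR, range over its alternatives 1.39e-10 to 0.00284).

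Nt5e showed the opposite order and the largest of the 5 differences. It stood at 81.9, 92.1, 111, 92.7 and 116 CPM in the Foxp3 gate and at 44.9, 57.5, 74.4, 49.6 and 57.9 CPM in the Foxp3-negative Cd4 gate, in the same order of libraries. All 5 libraries were higher in the Foxp3 gate and the 2 ranges did not overlap (log2 difference 0.76, SE 0.06, adjusted p = 1.96e-05 in edgeR). Entpd1 was 0.29 higher on the log2 scale (SE 0.05, adjusted p = 0.00223), at 104, 91.3, 126, 161 and 124 CPM against 77.9, 64.3, 108, 137 and 101 CPM. Each library was higher in the Foxp3 gate, although the ranges over libraries overlapped.

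Cells with UMIs of both CD39 and CD73 transcripts were a larger share of the Foxp3 gate. After thinning, 2.83%, 3.79%, 4.67%, 4.74% and 4.36% of its cells had both an Entpd1 and an Nt5e UMI, against 1.22%, 1.34%, 2.89%, 1.72% and 1.23% of Foxp3-negative Cd4 cells, in the order of libraries above. The share was higher in the Foxp3 gate in 5 of 5 libraries, from only 12 to 31 such cells per library. Exact 95% limits of the 2 gates did not overlap in control libraries 1 and 2 and knockout-labelled libraries 2 and 3. They overlapped in knockout-labelled library 1 (2.44% to 8.01% against 2.30% to 3.58%). These limits count single cells as independent, so they measure the sampling of cells and not the spread between libraries. The product of the separate Entpd1 and Nt5e shares was 2.65%, 2.23%, 3.91%, 4.84% and 4.64% in the Foxp3 gate, so the observed share lay on either side of it.

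Art2b was 0.39 higher in the Foxp3 gate on the log2 scale (SE 0.09, adjusted p = 0.0150), and higher in 5 of 5 libraries by 0.06 to 0.82. That call was lost without control library 2 (adjusted p = 0.0517) or without knockout-labelled library 1 (adjusted p = 0.0537). P2rx4 was 0.36 higher (SE 0.08, adjusted p = 0.0104), at 29.99, 20.2, 35.6, 26.1 and 32.4 CPM against 22.3, 19.2, 24.6, 20.6 and 20.9 CPM, again in 5 of 5 libraries. Before macrophage-gate cells were left out, the 8 macrophage markers were also higher in the Foxp3 gate in each library. Their part in the P2rx4 value was not tested. Adora2a (0.07, SE 0.06), Panx1 (-0.03, SE 0.06) and Ada (0.27, SE 0.18) did not pass.

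**Figure D2:**
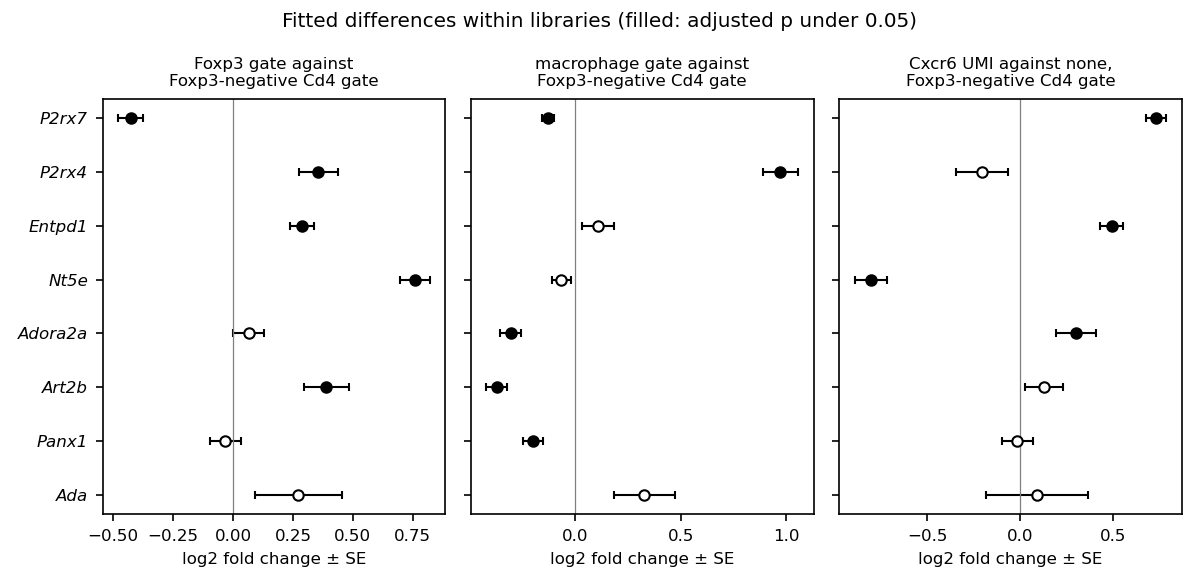
Fitted log2 fold change with its standard error (horizontal axes) of each gene for 3 comparisons within libraries. Filled points passed at an adjusted p under 0.05 in edgeR and open points did not. P2rx7 lies on the other side of 0 from Nt5e in the Foxp3 and Cxcr6 comparisons, and P2rx4 stands at 0.97 in the macrophage gate.

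Among the other listed genes, 33 were tested between the 2 T cell gates, of which 7 were higher and 4 lower in the Foxp3 gate, with a median of 0.14 beside -0.01 over all genes. The higher ones by smallest p were P2ry10, a lysophosphatidylserine receptor (0.74), Adk, the kinase that returns adenosine to AMP (0.47), Pnp, purine nucleoside phosphorylase (0.31), the inflammasome adaptor Pycard (0.35), the vesicular nucleotide transporter Slc17a9 (0.25) and the AMP deaminase Ampd3 (0.47). The lower ones were the inflammasome protease Casp1 (-0.58), Entpd5 (-0.40), the nucleoside transporter Slc28a2 (-0.23) and the ADP receptor P2ry1 (-1.58, SE 0.41). These values are log2 differences.

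Against the Foxp3-negative Cd4 gate, the macrophage gate was higher in P2rx4 and lower in P2rx7, Adora2a, Art2b and Panx1, with 39.4% of the 12654 genes tested called. P2rx4 stood at 36.6, 50.4, 50.1, 38.0 and 40.2 CPM in the macrophage gate and at 22.3, 19.2, 24.6, 20.6 and 20.9 CPM in the T cell gate. The ranges did not overlap, and the log2 difference was 0.97 (SE 0.08, adjusted p = 3.33e-05 in edgeR). The 4 lower genes differed by -0.13 (P2rx7), -0.31 (Adora2a), -0.37 (Art2b) and -0.20 (Panx1), each lower in 5 of 5 libraries. After thinning before gating, P2rx7 (-0.11, adjusted p = 0.416), Adora2a (-0.50, adjusted p = 0.0791) and Panx1 (-0.25, adjusted p = 0.260) no longer passed.

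Of the other listed genes, 16 of 33 were higher in the macrophage gate and 5 lower. The 6 with the smallest p were the lysosomal nucleoside transporter Slc29a3 (1.53), the UDP receptor P2ry6 (4.32), the ADP receptor P2ry12 (3.96), Pnp (0.92), the cytokine Il18 (2.13) and the inflammasome sensor Nlrp3 (3.10), as log2 differences. The lower ones were Slc28a2 (-0.28), Entpd5 (-0.37), Casp1 (-0.25), Acpp (-0.20) and P2ry10 (-0.21).

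Within the Foxp3-negative Cd4 gate, the genes were compared between cells with and without a UMI of Cxcr6, a chemokine receptor of tissue-dwelling T cells, after every cell was thinned to 2000 UMIs. Cxcr6 cells numbered 709 to 2088 per library and the others 1121 to 2887. The Cxcr6 share followed the groups, at 27.6% and 26.3% of cells in the controls and 38.7%, 44.7% and 35% in the knockout-labelled libraries. P2rx7, Entpd1 and Adora2a were higher in Cxcr6 cells and Nt5e was lower, 4 of 8 genes, where 27.5% of 9771 genes were called. P2rx7 stood at 203, 241, 395, 302 and 345 CPM with Cxcr6 in control libraries 1 and 2 and knockout-labelled libraries 1, 2 and 3, and at 113, 128, 231, 213 and 197 CPM without it. It was higher with Cxcr6 in 5 of 5 libraries, by 0.73 on the log2 scale (SE 0.05, adjusted p = 1.26e-11 in edgeR). Each knockout-labelled library was above both controls in either part of the split, and so was each for Entpd1. Both parts were drawn from the Foxp3-negative Cd4 cells described above. The share of all genes that separated likewise was not computed for them.

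Entpd1 was 0.49 higher with Cxcr6 (SE 0.06, adjusted p = 3.03e-07), and Nt5e was lower, with a log2 difference of -0.80 (SE 0.09, adjusted p = 2.09e-08). Nt5e stood at 32.7, 47.6, 63.5, 32.6 and 44.1 CPM with Cxcr6 and at 69.3, 66.5, 93.2, 65.1 and 71.2 CPM without it, and the ranges did not overlap. Adora2a was 0.30 higher (adjusted p = 0.0363), in 4 of 5 libraries. That Adora2a call was lost in DESeq2 (0.281) and when any library other than knockout-labelled library 3 was left out (adjusted p = 0.0667 to 0.153).

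**Figure D3:**
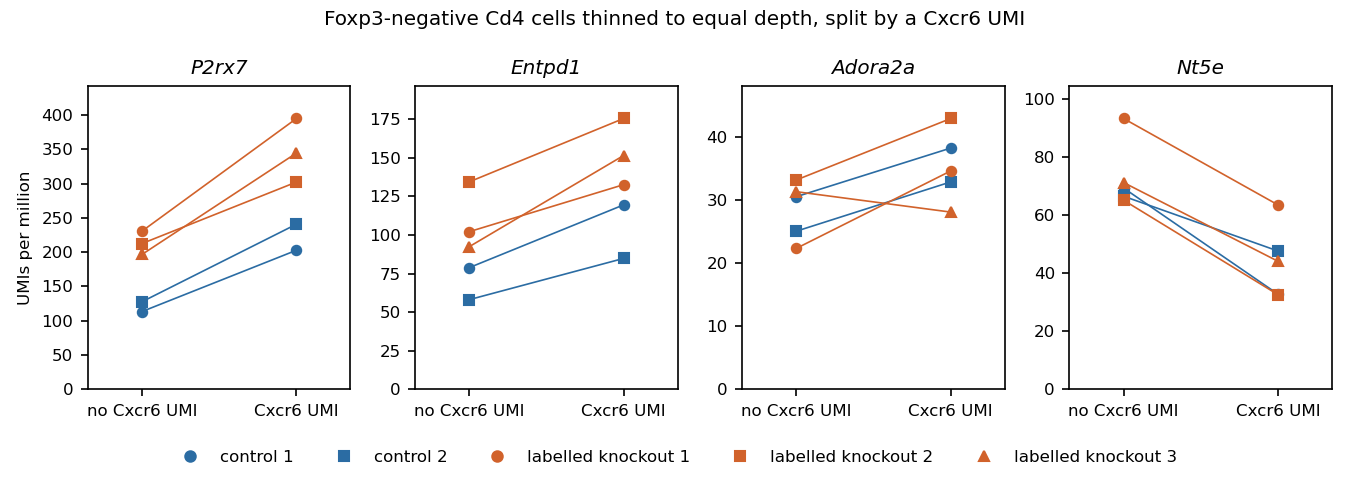
Levels of 4 genes in CPM (vertical axes, from 0) in Foxp3-negative Cd4 cells thinned to 2000 UMIs, without and with a Cxcr6 UMI. Each line joins the values of 1 library, blue for control and orange for knockout-labelled. P2rx7 and Entpd1 rise with Cxcr6 in every library, while Nt5e falls.

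Of the other listed genes, 21 were tested in the Cxcr6 split, of which 4 were higher and 5 lower. In Cxcr6 cells the NAD-consuming ectoenzyme Cd38 (1.07), Casp1 (0.42), Slc28a2 (0.22) and Entpd7 (0.48) were higher, and Adk (-1.73), Ampd3 (-1.35), Slc17a9 (-0.47), Entpd6 (-0.50) and P2ry10 (-0.37) were lower. All are log2 differences that passed in edgeR.

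Inside the Foxp3 gate the same kind of split had far fewer cells, 17 to 43 per library with an Il1rl1 UMI. Only P2rx7, Entpd1 and Nt5e were deep enough to be tested by Il1rl1, and 0 of 3 passed, with 0.577% of 2948 genes called. P2rx7 stood at 58.1, 154, 103, 236 and 88.2 CPM with Il1rl1 and at 100.3, 122, 195, 218 and 207 CPM without it, higher in 2 of 5 libraries (log2 difference -0.32, SE 0.25). DESeq2 also called 0 of these 3 genes, and 0 had an unadjusted p under 0.05 in edgeR. These depths do not show whether smaller differences exist.

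Levels were also described over 14 exclusive gates set on marker UMIs, each cell entering the first gate it met, with values where a library had at least 30 cells. The tubule gate had fewer than that in every library. These threshold gates depend on depth, and no test was made between them. Names such as Th1 cells or monocytes mean cells of these gates below. The Th1 gate used summed UMIs of Cxcr3, Tbx21, Ifng, Cxcr6, Nkg7 and Ccl5, with no single gene required. Cxcr6 is also the gene of the split above. The macrophage, monocyte, dendritic and B gates put no limit on T cell transcripts. The T cell RNA in the monocyte, dendritic and B gates was not measured. The P2rx7 means were highest in Th1 cells (252 ± 66.3 CPM, SD, n = 5 libraries) and cycling cells (249.2 ± 53.6, n = 5). Cells of no gate (223 ± 56.5, n = 5), interferon-responding Cd4 cells (213 ± 52.0, n = 5), macrophages (203.5 ± 52.2, n = 5) and Th2 cells (197 ± 68.7, n = 3) followed. Below these stood the Foxp3 gate (177 ± 54.6, n = 5), CD8 cells (152 ± 15.8, n = 4) and other Cd4 cells (150.1 ± 51.2, n = 5). The B, dendritic, NK or innate and monocyte gates had means of 117 to 130.3 CPM, from 1 to 5 libraries. Successive means differed by less than the larger of their SDs. Since P2rx7 differed between the groups, the order also depends on which libraries entered a mean: over the controls alone, dendritic cells (93.6 CPM) stood below monocytes (97.2 CPM).

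Among gates with values in all 5 libraries, the knockout-labelled libraries lay above both controls for P2rx7 in 7. These were the macrophage, Foxp3, cycling, interferon, Th1 and other Cd4 gates and cells of no gate, with ratios of group means of 1.46 to 1.83. In B cells the groups overlapped. Gates with fewer libraries were not counted, and the Foxp3 gate is the one that chose the gene. The share of all genes separating likewise was computed only for the macrophage gate among these (12.9%). Fits within single gates gave log2 differences of 0.63 in Th1 cells (SE 0.17), 0.52 in cycling cells (SE 0.12) and 0.83 in other Cd4 cells (SE 0.20). These are values with no call in edgeR (adjusted p = 0.920 to 1.00). In CD8 cells the groups overlapped: P2rx7 stood at 167 and 141 CPM in the controls and at 163 and 136 CPM in knockout-labelled libraries 1 and 2, from 30 to 117 cells per library.

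**Figure D4:**
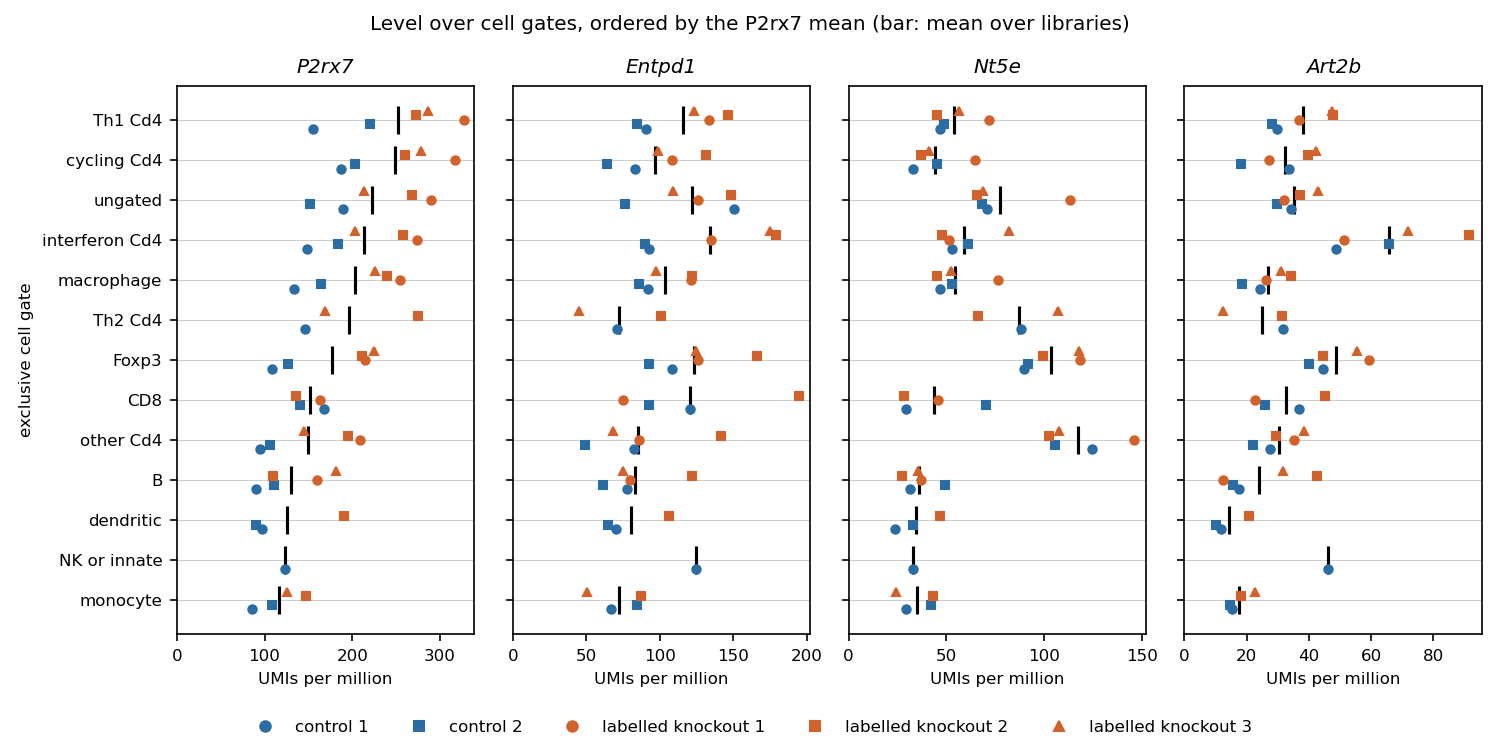
Levels of P2rx7, Entpd1, Nt5e and Art2b in CPM (horizontal axes, from 0) over the exclusive gates, ordered by the P2rx7 mean. Points are libraries with at least 30 cells in the gate, blue for control and orange for knockout-labelled, and black bars are means over libraries. The P2rx7 mean is highest in the Th1 gate (252 CPM) and the Entpd1 mean in the interferon gate (134 CPM). The Nt5e mean is highest in the other Cd4 gate (117 CPM).

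The other genes had their own orders over these gates. Entpd1 means ran from 72.3 ± 17.0 CPM in monocytes (n = 4) to 134 ± 42.8 CPM in interferon-responding cells (n = 5). Nt5e was highest in other Cd4 cells (117 ± 18.3 CPM) and the Foxp3 gate (103 ± 13.9 CPM), which lay within 1 SD of each other, and stood at 44.1 ± 12.2 CPM in cycling cells. Art2b was highest in interferon-responding cells (65.9 ± 17.3 CPM) and the Foxp3 gate (48.8 ± 8.17 CPM). P2rx4 was highest in the monocyte (43.1 CPM, n = 4) and macrophage gates (43.1 CPM, n = 5), and Adora2a was lowest in the dendritic gate (18.9 CPM, n = 3). Panx1 means ran from 35.6 CPM in the dendritic (n = 3) to 56.9 CPM in the CD8 gate (n = 4). Ada stayed at 2.57 to 7.72 CPM.

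Over the 55 gate and library values, centred within each library on the log2(CPM + 1) scale, P2rx7 correlated with Adora2a at a Pearson r of 0.52, with Entpd1 at 0.48, with Art2b at 0.47 and with Nt5e at 0.185. Among the 8 genes, the highest r was 0.715, between Entpd1 and Art2b, and the lowest was -0.607, between P2rx4 and Art2b. Among 8296 genes with a mean of at least 10 CPM there, those most like P2rx7 were the lysophosphatidic acid receptor gene Lpar6 (0.78), the integrin gene Itgal (0.76), the annexin gene Anxa6 (0.74), the prostaglandin receptor gene Ptger4 (0.72) and Rab11fip4 (0.71). These are descriptions over values that share libraries and depth.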

How the data were processed

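The deposited files hold raw UMI counts for each gene in each barcode of 2 control and 3 knockout libraries. Per the file headers, Cell Ranger 8.0.0 produced them, and Seurat 5.1.0 and mm10 are further named in the submitters' notes on processing. Intron counting and any doublet step are not given in the sources used here. Library totals were 152275841 (control 1), 46383793 (control 2), 41153835 (knockout 1), 60421178 (knockout 2) and 31104939 UMIs (knockout 3), and they set the precision.

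Cells with at least 500 genes and under 10% mitochondrial UMIs were kept, and no doublet caller was run. Counts were summed by library and gate and tested over all genes in edgeR 4.0.16 (R 4.3.3, quasi-likelihood test, TMM, filterByExpr, Benjamini-Hochberg adjustment, threshold 0.05), with library as a block within libraries. This procedure was also run on simulated counts with known changes, and the outcome is not reported here. Splits used cells thinned to 2000 UMIs, and levels are plain counts per sum of UMIs, without TMM. Gene positions came from GENCODE M21. Alternatives included DESeq2 1.42.0, RLE factors, no filter, a replicate block, stricter cells and gates, and leaving out each library, and 4 gate choices were added after seeing the data. Some splits and exclusive gates are not reported here, and cells of those gates are in no other exclusive gate.

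The 8 genes, the pathway list (56 genes, of which 54 were measured), the markers and the tests were chosen with earlier results of these data known. The text names the 8 genes, at most 6 other listed genes per direction that passed, by smallest p, and the 5 genes most like P2rx7. The labels do not say that equal replicate numbers mark a shared batch.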

Additional observations from a re-analysis of the deposited data

How the results depend on the processing

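Over 51 results on the 8 genes, 543 of 599 alternatives kept the main result. Keeping it meant the same direction and the same side of the threshold. In the Foxp3-negative Cd4 and macrophage gates, 0 of the 8 genes had passed between the groups. A result far from the threshold keeps its side easily, so the count does not measure how firm such values are. For the group differences in the Foxp3 gate it meant the same direction and a shift below the mean within-group SD of log2 CPM. Counts of called genes, given below, are not among the 599. The log2 difference of P2rx7 between knockout-labelled and control libraries stayed positive in the 3 gates under all alternatives run, at 0.72 to 0.99 in the Foxp3 gate when single libraries were left out. It passed at 0.67 in DESeq2 and 0.66 with no filter in the Foxp3-negative Cd4 gate, and at 0.65 in both in the macrophage gate. Genes called between the groups numbered 51 in DESeq2, 452 with no filter, 3 after thinning and 0 to 33 without single libraries in the Foxp3 gate (33 without control 2). They numbered 58, 191 and, in Th1 cells alone, 1 in the Foxp3-negative Cd4 gate, and 21, 145 and 0 to 2 without single libraries in the macrophage gate. With the replicate number as a block, 0, 1 and 0 genes were called in the 3 gates and P2rx7 differed by 0.85, 0.71 and 0.69, with no call for P2rx7 in the latter 2. The numbers were not shown to pair libraries: same-number correlations of deviations were 0.08 and -0.08, 0.15 and -0.09, and -0.02 and -0.20.

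Genes called within libraries numbered 1391 after thinning and 1556 (without control 1) to 2700 (without knockout 3) for the Foxp3 gate against the Foxp3-negative Cd4 gate, and 2662 after thinning for the macrophage gate. The Il1rl1 split called 4 in DESeq2, 52 with no filter, 149 without thinning and 4 (without knockout 2) to 16 when single libraries were left out. The Cxcr6 split called 1301 in DESeq2 and 5822 without thinning. The cause of these shifts was not tested.

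Sign changes of log2 differences fell mostly on values near 0. When single libraries were left out, the knockout against control values that changed sign were Ada in the Foxp3 gate (-0.14 without control 1, to 0.46) and, in the Foxp3-negative Cd4 gate, P2rx4 (-0.017 without knockout 1, to 0.14), Nt5e (-0.018 without knockout 1, to 0.38), Panx1 (-0.056 to 0.064, turning without control 1 or knockout 2) and Ada (-0.33 to 0.12 without control 2). In the macrophage gate they were P2rx4 (-0.27 to 0.17, turning without control 2 or knockout 2), Nt5e (-0.081 without knockout 1, to 0.34), Adora2a (-0.051 to 0.16, turning without control 2 or knockout 2), Panx1 (-0.077 to 0.021 without control 1) and Ada (-0.27 to 0.41, turning without control 1 or knockout 2). Within libraries they were Panx1 between the T cell gates (-0.073 to 0.0037 without knockout 3), Entpd1 (-0.077 without control 2, to 0.35) and Nt5e (-0.039 to 0.12, turning without control 2 or knockout 3) in the Il1rl1 split, and Panx1 (-0.067 to 0.013, turning without control 2, knockout 1 or knockout 2) and Ada (-0.014 without control 1, to 0.17) in the Cxcr6 split.

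Other settings also turned signs. Thinning gave Art2b -0.00071 and Panx1 0.017 between the groups in the Foxp3 gate, and Adora2a -0.097 and Panx1 0.29 between the T cell gates. Between the groups in the Foxp3-negative Cd4 gate, P2rx4 was -0.039 in Th1 cells, and Panx1 was 0.023 without macrophage-gate cells, 0.013 in cycling and 0.019 in other cells. A C1q sum of at least 20 gave Ada -0.098 in the macrophage gate. Without thinning, Entpd1 (-0.19) and Nt5e (-0.15) turned in the Il1rl1 split and Panx1 (0.042) in the Cxcr6 split. With no filter, Nt5e was -0.092 in the Il1rl1 split. Ada and the Il1rl1 split are limited by depth.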

Other observations

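The neighbours of P2rx7 on chromosome 5 were spread about 0. Of the genes within 1 Mb of it, 43 were tested in the Foxp3-negative Cd4 gate, with log2 differences between the knockout-labelled and control libraries of -0.72 to 0.61, a median of -0.01 and 21 above 0. AI480526 alone among them had an unadjusted p under 0.05 in edgeR, with a log2 difference of -0.68 (adjusted p = 0.962). In the Foxp3 gate 35 neighbours were tested, with a median of -0.03, a range of -0.84 to 0.63 and 15 above 0. Hvcn1, a proton channel gene, and Vps33a, an endosomal sorting gene, were the 2 with an unadjusted p under 0.05 there, at -0.33 (adjusted p = 0.741 in edgeR) and 0.36 (adjusted p = 0.682). AI480526 stood at -0.41 in the Foxp3 gate (unadjusted p = 0.198 in edgeR). In the macrophage gate, which shares most of its cells with the T cell gates, 38 neighbours were tested. Their median was -0.0036, with a range of -0.56 to 0.49 and 19 above 0. AI480526 was again the only 1 with an unadjusted p under 0.05 in edgeR, at -0.56 (unadjusted p = 0.0249). AI480526, Hvcn1 and Vps33a were chosen after their values were seen.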
